A study of Mus musculus with 91 samples.

Results

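The 36 genes described here encode the enzymes and structural proteins that write, remove and organise DNA methylation, histone marks and compacted chromatin. They were chosen by name, and each was found as 1 row in all 8 deposited count tables, which hold 16668 to 18992 gene rows. Every one of the 36 passed the low-count filter in every table. Among them 7 were grouped as replication-linked, because their products copy or maintain chromatin behind the replication fork or are known for high levels in dividing cells: Dnmt1, Uhrf1, Ezh2, Suv39h1, Suv39h2, Hmgb2 and Cbx5. The other 29 formed the group they were compared with.

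DNA methylation is copied to the daughter strand by the methyltransferase Dnmt1, which is brought to newly made DNA by Uhrf1, and is removed through oxidation by the Tet enzymes. Polycomb repressive complex 2 places the silencing mark on lysine 27 of histone H3 through its catalytic subunit Ezh2 or, in resting cells, Ezh1. In regulatory T cells (Tregs), the Foxp3-dependent CD4 T cells that restrain other immune cells, demethylated DNA at the Foxp3 gene keeps Foxp3 expression stable, and Ezh2 is known to be needed for function after activation.

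Tregs were sorted from the spleen of C57/BL6 mice carrying a red fluorescent protein reporter of Foxp3, and their ribosome-depleted total RNA was sequenced. Mice received mouse IL-2 (mIL-2, the dose of which the labels do not give), the fusion protein mIL-2/CD25 (FP), which joins IL-2 to a chain of its own receptor, at 20 µg per the protocol text, or PBS. The tables of 1.5 h and 16 h held 4 libraries in each of these groups. At 4 h there were 3 PBS, 4 IL-2 and 3 FP libraries, at 72 h 3 PBS, 3 IL-2 and 4 FP, and at 168 h 3 PBS and 4 FP. An in vitro table of 1.5 h and a table labelled high dose, with neither dose nor time in its labels, held 3 PBS and 3 IL-2 libraries each. A restimulation table of 1.5 h held 3 libraries of PBS followed by PBS, 3 of PBS followed by a single FP, and 4 of FP followed by a second FP. All animals shared the strain and the reporter, and the labels do not say whether replicates are separate mice, so the p-values reflect nothing but the scatter among these libraries, which may be technical.

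Library totals ran from 12212262 to 46108114 counted reads. Levels are given as CPM, the read count scaled to library size with TMM. The summed level of 7 Treg markers lay between 3060 and 6580 CPM in every library. Those of B cell markers (15.1 to 54.9 CPM), CD8 T and NK cell markers (5.98 to 21.7) and erythroid and platelet markers (1.14 to 47.8) were far lower, and myeloid markers ran from 19.7 to 1850 CPM. Some libraries stood apart: PBS 3 and IL-2 2 of the high-dose table and FP-FP 2 and 4 of the restimulation table had low levels of several members with long transcripts. Kmt2c, for example, was at 82.2 and 142 CPM in those high-dose libraries against 267 to 614 in the other 4. At 4 h, FP 1, FP 2 and IL-2 1 were low in others, with Kmt2d at 541, 310 and 625 CPM against 848 to 1410 in the remaining 7 assigned libraries. In bulk samples fewer cells of a type and less RNA per cell cannot be told apart.

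Promoters of 31 of the 36 members, 250 bases before to 50 bases after a transcription start, were matched in RefSeq (build GRCm38.p6). A binding motif of E2F factors, which activate genes of DNA replication, was searched on both strands as TTTCCCGC, TTTGGCGC, TTTCGCGC or TTTGCCGC. It was found for 4 of 7 replication-linked members, Dnmt1, Ezh2, Suv39h1 and Uhrf1, and for 3 of the 24 other members with a promoter, Arid1a, Cbx3 and Suz12. Of all 32851 promoters 2.26% held it, and of the 27025 genes with a promoter 2.6% had it in at least 1. The CHR element of late cell-cycle genes, TTTGAA or TTCGAA, stood in 19.2% of promoters (21.7% of genes) and for 3 members in each group, among them Hmgb2 with 2 copies in 1 window. The STAT motif TTCNNNGAA, in 8.3% of promoters (9.55% of genes), was found for Hdac7 and Kmt2d and for no replication-linked member. The sequences below show where these letters lie in replication-linked members called higher after FP, as described below, that held a motif. Cbx5, also called higher, held none of the motifs searched. The sequences are on the gene's strand, 5′ to 3′, with the motif in capitals. Those of Uhrf1 (chr17:56304063-56304312, plus strand) and Hmgb2 (chr8:57511593-57511842, plus strand) end at the base before a start, as does that of Suv39h1 (chrX:8074362-8074521, minus strand). For Ezh2 (chr6:47595019-47595048, minus strand) and Dnmt1 (chr9:20952824-20952853, minus strand) only 30 bases around the motif are given. The capitals mark the CHR element in Hmgb2 and the E2F motif in the others, on the opposite strand in Dnmt1, Suv39h1 and the first of the pair in Hmgb2. A match of letters is a description and does not show that a factor binds.
Uhrf1: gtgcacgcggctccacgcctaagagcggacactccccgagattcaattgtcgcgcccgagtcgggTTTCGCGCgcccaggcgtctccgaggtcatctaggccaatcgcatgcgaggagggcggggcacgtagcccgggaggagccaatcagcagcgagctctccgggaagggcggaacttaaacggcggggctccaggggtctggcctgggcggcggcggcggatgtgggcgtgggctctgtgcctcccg
Ezh2: gatggcgattgggttgctgcgTTTGGCGCt
Dnmt1: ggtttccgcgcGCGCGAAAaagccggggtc
Suv39h1: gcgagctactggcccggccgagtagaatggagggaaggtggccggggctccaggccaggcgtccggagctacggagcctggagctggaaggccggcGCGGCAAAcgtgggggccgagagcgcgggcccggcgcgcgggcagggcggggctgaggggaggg
Hmgb2: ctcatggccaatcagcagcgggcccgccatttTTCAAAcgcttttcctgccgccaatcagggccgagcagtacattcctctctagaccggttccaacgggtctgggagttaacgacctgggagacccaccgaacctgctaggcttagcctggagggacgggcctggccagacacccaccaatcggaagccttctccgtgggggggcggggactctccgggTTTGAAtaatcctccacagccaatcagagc

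How chromatin regulators respond to IL-2 receptor signals of different length was read from each treated group against the PBS libraries of its own table. Calls of members came on 2 time scales. In vivo Ezh2 was the only member called higher at 1.5 h in the main edgeR fit. At both 16 h and 72 h after FP, 6 replication-linked members rose and Kmt2a, Kmt2c and Tet1 fell. A gene was called where the adjusted p of edgeR's quasi-likelihood test, Benjamini-Hochberg over all genes tested, was below 0.01. Unless another setting is named, a call is one of this main fit. FP called 12 members higher and 6 lower at 16 h, where 28.9% of all genes tested were called in either direction, and 13 higher and 5 lower at 72 h, where 30.5% of all genes were called. IL-2 called 1 higher and 4 lower at 1.5 h, where 14.4% of all genes were called, 8.56% higher and 5.89% lower. It called 1 higher at 4 h (0.646% of all genes, 0.561% higher and 0.0851% lower), 1 higher at 16 h (0.367%) and none at 72 h (0%). FP called 1 higher and 1 lower at 1.5 h (6.96% of all genes, 4.54% higher and 2.42% lower) and 1 higher at 4 h (0.851% of all genes, 0.663% higher and 0.187% lower). In data simulated for FP at 4 h this test recovered 0% of genes changed 2-fold and 34.8% of those changed 4-fold. The changed genes were drawn at random from all genes tested, so these rates are not specific to the members. With so few recovered, calls missing at 4 h do not show when the later changes began. Within a table the IL-2 and FP comparisons share their PBS libraries. At 72 h after IL-2 no member had an unadjusted edgeR p under 0.05 either (76 of all 18624 genes tested had), and DESeq2 called no member. At 1.5 h of IL-2 DESeq2 also called Uhrf1 (0.42, adjusted p = 0.0088) and Smarca4 (0.257, adjusted p = 0.004) higher, and Tet3, Setd2 and Crebbp lower. Hdac2 (0.428, edgeR adjusted p = 0.0046) was called higher there with replicate number as a block, and Hmga1 (0.439, adjusted p = 0.0092) without IL-2 library 2.

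**Figure D1:**
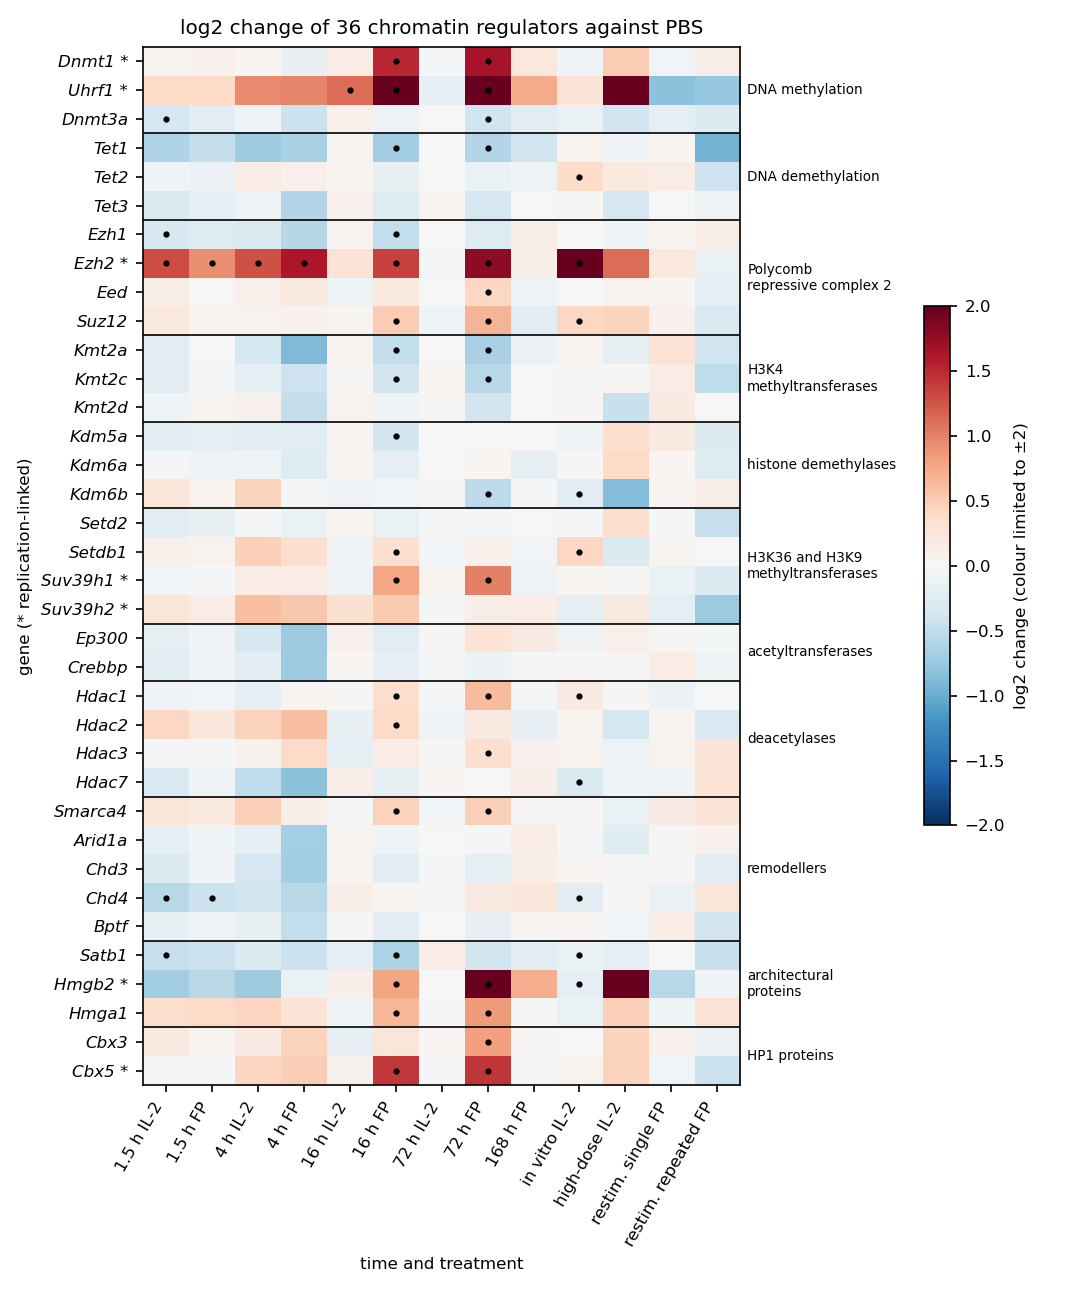
Log2 change against PBS of the 36 members (rows, grouped by role; asterisks mark the 7 replication-linked members) in 13 comparisons (columns), with colour limited to ±2. Black dots mark calls, which gather in the columns of FP at 16 h (18) and 72 h (18), while the row of Ezh2 also carries dots at 1.5 h, 4 h and in vitro.

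Replication-linked members and the others separated after FP. The split was made with earlier results of these data known and took in genes known for high levels in dividing cells. The separation therefore describes the groups and is no test of the split. At 16 h 6 of 7 replication-linked members were called higher and none lower, with a median log2 change of 1.37, against 6 higher and 6 lower of the other 29, with a median of -0.13. At 72 h the counts were 6 of 7 higher (median 1.65) against 7 higher and 5 lower of 29 (median -0.02). Of all genes tested, 14.6% were called higher and 14.4% lower at 16 h, and 17.4% higher and 13% lower at 72 h. With Eed and Suz12 counted as replication-linked the medians were 0.79 at 16 h and 1.43 at 72 h. All 16 genes of a list of S-phase genes were called higher at both times, with median log2 changes of 2.01 and 2.58, and their part in the rise of these members was not tested. After IL-2 the replication-linked medians were 0.05 at 1.5 h, 0.44 at 4 h, 0.16 at 16 h and -0.02 at 72 h.

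**Figure D2:**
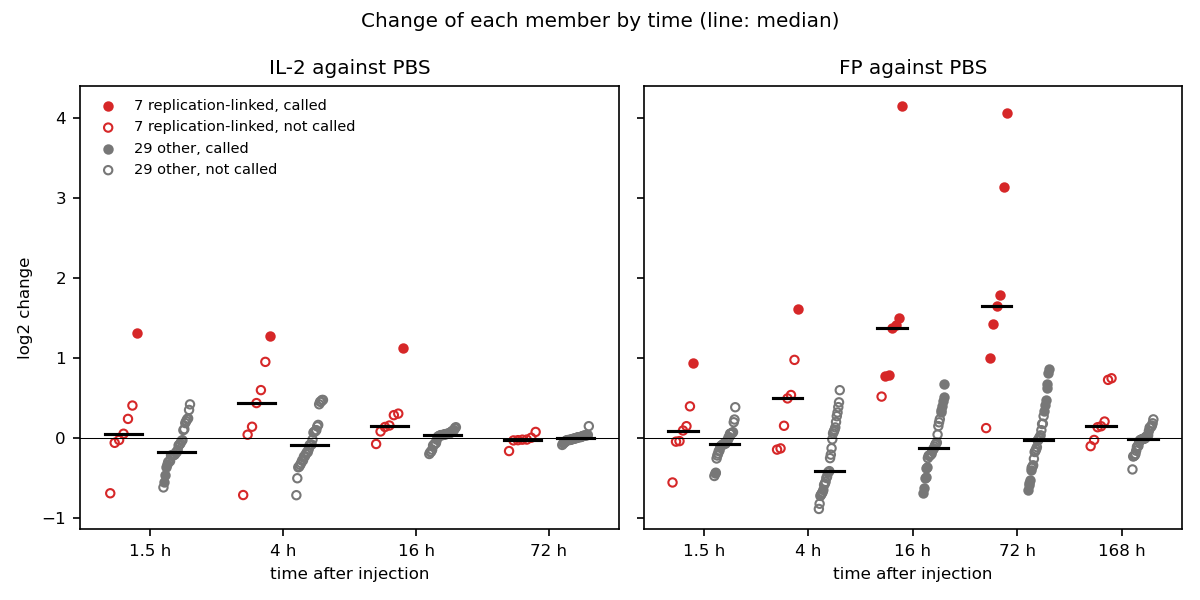
Log2 change against PBS of each member by time after IL-2 (left) and FP (right), for 7 replication-linked (red) and 29 other members (grey), with filled points for calls and black lines for medians. The red medians after FP lie at 1.37 at 16 h and 1.65 at 72 h and at 0.15 at 168 h, and the grey ones stay between -0.41 and -0.01.

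Among the genes of DNA methylation, Uhrf1 (ENSMUSG00000001228, chromosome 17, 56303321 to 56323486 in GRCm38) changed most. In the 16 h libraries its level was 8.27, 11.5, 11.5 and 7.12 CPM after PBS, 17.9, 19.1, 25.8 and 20.8 after IL-2, and 170, 165, 181 and 165 after FP. The groups did not overlap, with IL-2 between PBS and FP. The log2 change was 4.15 ± 0.14 (SE) for FP, 17.7-fold, with an edgeR adjusted p of 1.6e-12, and 1.12 ± 0.14 for IL-2, with an adjusted p of 0.00085. The IL-2 call was lost when only the 2 groups compared were fitted (adjusted p = 0.014, range over 14 alternatives 2.4e-11 to 0.014). At 72 h Uhrf1 was at 13.9, 11.8 and 9.02 CPM after PBS, 10.2, 11.6 and 9.22 after IL-2, and 203, 208, 233 and 135 after FP. IL-2 lay within the PBS range, and the FP change was 4.07 ± 0.21 with an adjusted p of 7.8e-08. Of 50-base stretches of Uhrf1 exons 18.9% also occur in other genes, so a part of its reads could be counted elsewhere. At 1.5 h its levels were already a little higher, without overlap and without a call: 9.83, 10.4, 9.33 and 10.2 CPM after PBS, between 11.9 and 15.5 in the 4 IL-2 libraries (change 0.41, adjusted p = 0.022) and 13.1, 13.4, 13.9 and 12 after FP (0.40, adjusted p = 0.039). The same held at 4 h, at 6.7 to 12.3 CPM after PBS, 14.7 to 24.6 after IL-2 and 13.2 to 20.8 after FP. Neither treated group overlapped PBS there or was called in the main fit. With the tag in the column names as a factor, the IL-2 change was called (0.991, edgeR adjusted p = 0.00017).

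Dnmt1 (ENSMUSG00000004099, chromosome 9, 20907209 to 20959888), the maintenance methyltransferase, rose from a higher start. At 16 h it was at 177, 194, 177 and 146 CPM after PBS, 198, 193, 192 and 190 after IL-2, and 496, 494, 493 and 471 after FP. Every FP library lay far above every PBS library, while IL-2 and PBS overlapped. The FP changes were 1.50 ± 0.08 at 16 h (adjusted p = 6.3e-11) and 1.65 ± 0.13 at 72 h (adjusted p = 8e-07), when FP libraries held 484, 520, 569 and 387 CPM against 147 to 161 after PBS. Dnmt3a, which sets methylation anew, went the other way. It fell at 1.5 h of IL-2 by 0.36 ± 0.07 on the log2 scale (PBS 199, 222, 225 and 193, IL-2 161, 168, 161 and 165 CPM, adjusted p = 0.0015). It fell again at 72 h of FP by 0.40 ± 0.08 (adjusted p = 0.0017), from 193, 224 and 201 to 140, 159, 168 and 158 CPM. Without PBS library 2 that adjusted p was 0.016, the highest of 14 alternatives, which began at 0.00035.

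Of the Tet dioxygenases, which oxidise methylated cytosine, Tet1 fell after FP. Its levels at 16 h were 28.4, 31.7, 28.7 and 30.3 CPM after PBS, 31.1, 28.6, 31.3 and 31.2 after IL-2, and 20.5, 19.8, 18.3 and 15.1 after FP. FP libraries lay below all others. The log2 change was -0.69 ± 0.09 at 16 h (adjusted p = 1.2e-05) and -0.59 ± 0.10 at 72 h (adjusted p = 0.00051), where FP held 18.2, 19.3, 18.1 and 22.2 against 31.3, 27.9 and 28.4 CPM after PBS. At 168 h FP libraries, at 21.2, 23.8, 22 and 22.8 CPM, were still below PBS at 27.4, 27.6 and 33.4, but the change of -0.39 was not called (adjusted p = 0.14). Tet2 was called only in vitro, where it rose by 0.37 ± 0.04 from 306, 302 and 303 to 381, 394 and 398 CPM. Tet3 was not called against PBS in the main fit of any table, with -0.25 at 16 h and -0.34 at 72 h of FP. DESeq2 called it lower at 1.5 h of IL-2 (-0.283, adjusted p = 0.0089).

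In Polycomb repressive complex 2 the catalytic subunit Ezh2 (ENSMUSG00000029687, chromosome 6, 47530139 to 47595341) had the largest rise of all members at 1.5 h in vivo, the first time sampled. At 1.5 h it was at 46.3, 50.2, 48.5 and 34.4 CPM after PBS, 94.3, 105, 122 and 123 after IL-2, and 106, 87.3, 81.9 and 67.3 after FP. Both treated groups lay above all PBS libraries. The log2 changes were 1.31 ± 0.14 for IL-2 (adjusted p = 1.4e-05) and 0.93 ± 0.14 for FP (adjusted p = 0.00053), and FP against IL-2 gave -0.37, not called. At 4 h Ezh2 was at 42.2, 37.2 and 52.3 CPM after PBS, 107, 88.8, 128 and 98.6 after IL-2, and 117, 137 and 147 after FP, both treated groups again above PBS. The changes there were 1.27 ± 0.18 (adjusted p = 0.0068) and 1.61 ± 0.19 (adjusted p = 0.003). The IL-2 call at 4 h was lost with any 1 of its 7 libraries left out (log2 change 1.13 to 1.37, adjusted p up to 0.061), and the FP call without PBS 1, PBS 2 or FP 2 (log2 change 1.50 to 1.71 over the 6 fits, adjusted p up to 0.031). Sequencer lane as a covariate also ended both 4 h calls (edgeR adjusted p = 0.015 for IL-2), but it cannot tell a lane effect from the treatment. All assigned PBS and IL-2 libraries shared a lane, so it adjusts nothing between them. Of the FP libraries only FP 1 lay in that lane, so the FP change there rests on FP 1. Both 4 h calls were also lost when only the groups compared were fitted. Over all alternatives the adjusted p for IL-2 ran from 1.3e-09 to 0.061, and the log2 change for FP from 1.42 to 1.71. With replicate number as a block, 2 members were called for FP at 4 h: Ezh2 at 1.62 (edgeR adjusted p = 0.00011) and Kmt2a at -0.94 (adjusted p = 0.0089). Only 1 of 3 PBS libraries there deviated most like the FP library of its own number, so the block may not mark true pairs.

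Later, Ezh2 was called after FP and not after IL-2. At 16 h IL-2 libraries were at 56.5, 60.9, 72.6 and 67.1 CPM, only just above PBS at 45.7, 55.3, 55 and 54.8, and the change of 0.29 was not called. FP libraries were at 121, 150, 144 and 129 CPM, a change of 1.37 ± 0.09 (adjusted p = 3e-09). At 72 h FP held 204, 183, 205 and 154 CPM against 55.5, 54.8 and 51.6 after PBS and 50.8, 54 and 54.6 after IL-2, a change of 1.79 ± 0.10 over PBS (adjusted p = 7.5e-08). Set directly against IL-2, FP was higher by 1.08 ± 0.09 at 16 h (adjusted p = 4.6e-08) and by 1.81 ± 0.10 at 72 h (adjusted p = 6e-08). By 168 h the 4 FP libraries, at 63, 54.4, 53.3 and 54.4 CPM, overlapped PBS at 51.7, 46.9 and 55.1.

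The partners of Ezh2 moved less. Suz12, a core subunit that the complex needs for its activity, was called only from 16 h on in vivo: after FP it rose from 99.2, 86.7, 106 and 112 to 127, 164, 148 and 137 CPM, by 0.51 ± 0.09 (adjusted p = 0.00022). At 72 h the change was 0.68 ± 0.08, with FP at 187, 183, 184 and 169 and PBS at 121, 106 and 111 CPM. Eed, which reads the mark that the complex makes, rose at 72 h of FP by 0.41 ± 0.08 (adjusted p = 0.001). Without PBS library 3 that adjusted p was 0.012, the highest of 14 alternatives, which began at 6e-05. Ezh1, the alternative catalytic subunit, fell at 16 h of FP by 0.50 ± 0.07 (adjusted p = 2.4e-05), from 124, 128, 112 and 106 to 90.1, 78.2, 83.5 and 81 CPM, so that the 2 catalytic subunits went in opposite directions. Its fall at 1.5 h of IL-2, by 0.32 ± 0.07 (adjusted p = 0.0051), was lost with PBS 1, 2 or 3 or IL-2 1, 3 or 4 left out (log2 change -0.36 to -0.28 over 8 fits, adjusted p up to 0.022, range over 14 alternatives 0.00075 to 0.022). Accessory subunits outside the 36 moved both ways at 16 h of FP: Phf19 by 2.31 and Rbbp7 by 0.90 were called higher, and Phf1 by -1.10 and Jarid2 by -0.60 were called lower.

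**Figure D3:**
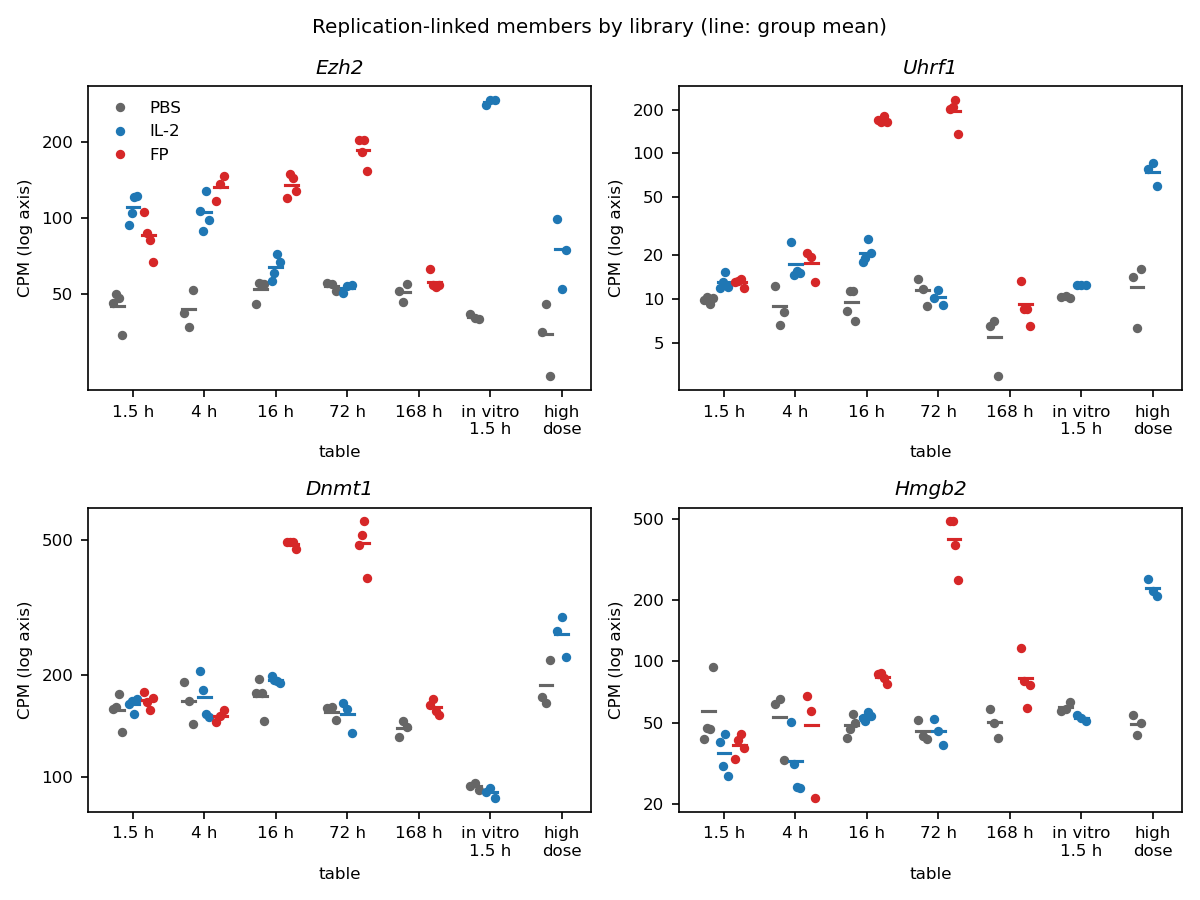
CPM of Ezh2, Uhrf1, Dnmt1 and Hmgb2 in every assigned library of 7 tables (log axis), for PBS (grey), IL-2 (blue) and FP (red), with a line at each group mean. Ezh2 lies above PBS at 1.5 h after both agents, Uhrf1 and Dnmt1 lie far above it at 16 h and 72 h of FP, and Hmgb2 reaches 252 to 487 CPM at 72 h of FP.

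Of 3 methyltransferases of H3K4, whose mark goes with active promoters and enhancers, 2 fell after FP. Kmt2a was at 1230, 1280, 923 and 938 CPM after PBS at 16 h, at 1220, 1080, 1140 and 1110 after IL-2, and at 819, 776, 735 and 779 after FP. FP lay below both groups. Kmt2a fell by 0.49 ± 0.10 at 16 h (adjusted p = 0.00069) and by 0.64 ± 0.12 at 72 h (adjusted p = 0.00076), when FP held 488, 535, 665 and 684 against 854, 1010 and 913 CPM after PBS. Kmt2c fell by 0.37 ± 0.07 at 16 h (adjusted p = 0.00047), from 669, 648, 545 and 588 to 471, 468, 467 and 486 CPM. At 72 h it fell by 0.56 ± 0.08 (adjusted p = 0.00018), to 355, 351, 388 and 407 from 545, 570 and 542 CPM. The third gene of the group, Kmt2d, was not called at either time, with changes of -0.07 and -0.37.

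Of 3 demethylases of histone H3, 2 fell after FP, each at 1 time. Kdm5a, which removes H3K4 methylation, fell at 16 h of FP by 0.36 ± 0.07 (adjusted p = 3e-04), from 289, 295, 263 and 323 to 227, 232, 233 and 221 CPM. At 72 h it was at 290, 289, 276 and 286 CPM after FP, inside the PBS range of 269 to 310. Kdm6b, which removes the H3K27 mark, was at 169, 167 and 143 CPM after PBS and 114, 116, 104 and 109 after FP at 72 h, without overlap, and fell by 0.53 ± 0.08 (adjusted p = 0.00018). At 16 h its groups overlapped (PBS 132 to 187, FP 143 to 167 CPM). Kdm6a was not called in any table.

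**Figure D4:**
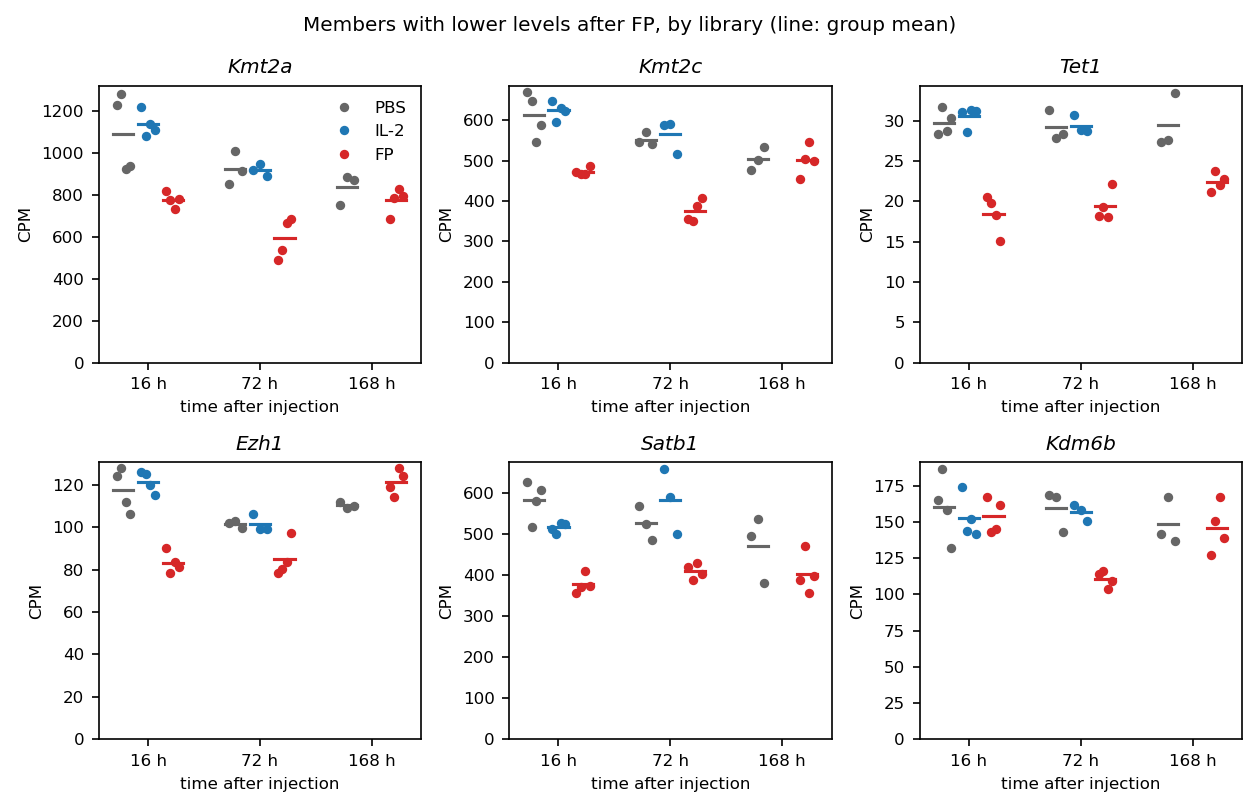
CPM of 6 members called lower after FP at 16 h or 72 h in the libraries of 16 h, 72 h and 168 h, on linear axes from 0, for PBS (grey), IL-2 (blue) and FP (red), with a line at each group mean. Kmt2c at 16 h, for example, lies at 467 to 486 CPM after FP and at 545 to 669 after PBS.

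Of the H3K9 methyltransferases that build heterochromatin, Suv39h1 rose. At 16 h it was at 19.4, 20.5, 20.7 and 16.1 CPM after PBS, 17.4, 17.9, 18 and 19.5 after IL-2, and 34.7, 32.5, 33.9 and 30.4 after FP. The change was 0.78 ± 0.09 (adjusted p = 2.5e-06), and at 72 h, with FP at 29.3, 36.5, 42.4 and 23.1 against 16.6, 16.1 and 16.6 CPM, it was 1.00 ± 0.17 (adjusted p = 5e-04). Its paralogue Suv39h2 was the 1 replication-linked member not called at either time after FP: at 16 h it was at 7.69, 5.82, 4.86 and 6.8 CPM after PBS and 9.02, 9.35, 9.23 and 8.4 after FP. The groups did not overlap, and the change of 0.52 (95% interval 0.18 to 0.86) had an adjusted p of 0.011. At 72 h its change was 0.12, with an interval from -0.20 to 0.44. Setdb1, another H3K9 methyltransferase, rose at 16 h of FP by 0.32 ± 0.06 (adjusted p = 0.00032), from 96.3, 104, 101 and 92.1 to 126, 122, 121 and 125 CPM. It was not called at 72 h, at 0.10, and 6.08% of its 50-base exon stretches occur in Gm4349. Setd2, which methylates H3K36, was not called in the main fit of any table. DESeq2 called it lower at 1.5 h of IL-2 (-0.203, adjusted p = 0.0072).

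The acetyltransferases Ep300 and Crebbp were not called against PBS in the main fit of any table. At 1.5 h of IL-2 DESeq2 called Crebbp lower (-0.207, adjusted p = 0.0094). Ep300 was called lower there without PBS 4 (-0.274, edgeR adjusted p = 0.009). Among the deacetylases, which remove acetyl groups from histones, Hdac1 rose at 16 h of FP by 0.36 ± 0.07 (adjusted p = 0.00032), from 107, 116, 130 and 118 to 155, 144, 151 and 153 CPM. At 72 h it rose by 0.62 ± 0.11 (adjusted p = 0.00063), from 112, 114 and 97.4 to 173, 190, 163 and 137 CPM. For Hdac1 58.7% of 50-base exon stretches also lie in other genes, such as Gm10093, so its level is uncertain. Hdac2 rose at 16 h only, by 0.40 ± 0.09 (adjusted p = 0.0016), to 74.1, 83, 86.1 and 77.6 from 54.3, 53.7, 62.8 and 72.7 CPM. Hdac3 was called at 72 h, at 0.34 ± 0.09 (adjusted p = 0.0082), a call lost without PBS 2, PBS 3, FP 2 or FP 3 (log2 change 0.28 to 0.39 over 7 fits, adjusted p up to 0.06, range over 14 alternatives 0.004 to 0.06). Hdac7 was not called after FP or IL-2 in vivo against PBS.

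Of 5 genes of ATP-dependent remodelling complexes, 2 were called against PBS. Smarca4, the ATPase of SWI/SNF complexes, rose at 16 h of FP from 247, 282, 251 and 207 to 346, 318, 338 and 355 CPM, by 0.46 ± 0.08 (adjusted p = 0.00018). At 72 h it rose by 0.47 ± 0.08, with FP at 293, 320, 315 and 279 and PBS at 218, 226 and 207 CPM. Chd4, the ATPase of the NuRD complex, moved early: at 1.5 h it was at 676, 663, 693 and 747 CPM after PBS, 492, 492, 439 and 473 after IL-2, and 492, 501, 487 and 575 after FP. Both groups lay below PBS, with falls of 0.55 ± 0.08 (adjusted p = 9.6e-05) and 0.44 ± 0.08 (adjusted p = 0.0014). At 16 h of FP Chd4 was at 770, 697, 696 and 740 CPM, within the PBS range of 583 to 792. Arid1a, Chd3 and Bptf were not called in the main fit of any table. At 4 h of FP DESeq2 called Chd3 lower (-0.727, adjusted p = 0.00017).

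Among architectural proteins, Hmgb2 (ENSMUSG00000054717, chromosome 8, 57511907 to 57515999), a DNA-bending protein abundant in dividing cells, rose late. At 16 h it was at 42.2, 46.7, 55.5 and 49.8 CPM after PBS, 52.5, 50.8, 56.4 and 54.1 after IL-2, and 86.9, 87.8, 83.1 and 77.4 after FP, a change of 0.79 ± 0.08 (adjusted p = 4.9e-07). At 72 h it was at 51.8, 43 and 41.7 CPM after PBS and 487, 487, 372 and 252 after FP, a change of 3.14 ± 0.23, 8.79-fold (adjusted p = 1.9e-06). FP library 4 was the lowest of the 72 h FP libraries for Hmgb2 as for Uhrf1, Dnmt1, Ezh2, Suv39h1, Hdac1, Hmga1, Cbx3 and Cbx5, and without it 22 members were called at 72 h. Of 50-base exon stretches of Hmgb2 21.9% occur in other genes, such as Gm4739. Satb1, an organiser of T cell chromatin, fell at 16 h of FP by 0.63 ± 0.07 (adjusted p = 2.1e-06), from 627, 516, 581 and 608 to 357, 371, 409 and 372 CPM. At 1.5 h of IL-2 it fell by 0.47 ± 0.12 (adjusted p = 0.008), from 816, 671, 753 and 731 to 543, 638, 471 and 499 CPM, a call lost without PBS 1, 3 or 4 or IL-2 1, 3 or 4 (log2 change -0.56 to -0.41 over 8 fits, adjusted p up to 0.034, range over 14 alternatives 0.002 to 0.034). At 72 h of FP Satb1, at 420, 389, 429 and 402 CPM, lay below PBS at 569, 524 and 485, but its change of -0.36 was not called (adjusted p = 0.01 after rounding). Hmga1 rose by 0.67 at 16 h and 0.86 at 72 h of FP, but 69.1% of its exon stretches are shared with Hmga1b.

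The HP1 proteins bind the H3K9 mark. Cbx5 was at 101, 103, 100 and 116 CPM after PBS at 16 h, at 103, 108, 119 and 115 after IL-2, and at 252, 289, 302 and 270 after FP, a change of 1.41 ± 0.08 (adjusted p = 1.4e-10). At 72 h FP held 289, 276, 312 and 232 against 109, 100 and 100 CPM, a change of 1.43 ± 0.10. Cbx3 was not called at 16 h, at 0.24, and rose at 72 h by 0.82 ± 0.11 (adjusted p = 8.6e-05), from 57, 48 and 47.3 to 103, 95.3, 84.5 and 75.3 CPM. Of 50-base exon stretches of Cbx3 24.6% occur in other genes, such as Cbx3-ps6, so its level is uncertain. Both HP1 genes were therefore higher at 72 h, and Cbx5 already at 16 h. On a scale per kb of annotated exon, the level at 72 h of FP was, among the 7 replication-linked members, highest for Hmgb2 (133 ± 37 CPM per kb, SD, n = 4), then Dnmt1 (66.4 ± 10), Uhrf1 (45.8 ± 9.8), Cbx5 (30.8 ± 3.8), Ezh2 (28 ± 3.6), Suv39h1 (6.22 ± 1.6) and Suv39h2 (1.89 ± 0.12). The SDs of Cbx5 and Ezh2 overlapped, so their order is not resolved.

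At 72 h, beside these changes, the summed level of 8 myeloid markers was 419 to 1040 CPM in PBS, 435 to 778 in IL-2 and 19.7 to 87.6 in FP libraries. At 16 h it was 348 to 703 CPM in FP and 510 to 824 in PBS libraries, over 7 markers with a row. Treg markers summed to 3250 to 3780 CPM in PBS and 4720 to 5050 in FP libraries at 16 h, and to 3160 to 3690 and 5440 to 6060 at 72 h. The part of either in the results was not tested.

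Chromatin genes outside the 36, taken from a list of 104 of which 103 were tested at these times, moved in both directions. At 16 h of FP 24 were called higher and 23 lower, with a median of -0.01, and at 72 h 30 were higher and 17 lower, with a median of 0.13. Chaf1a and Chaf1b, subunits of the assembly factor that places histones on new DNA, rose at 16 h by 3.48 ± 0.15 (4.37 ± 1.2 to 49.1 ± 1.69 CPM, SD, n = 4 and 4) and 1.81 ± 0.09. Cdca7, a partner of the remodeller Hells, rose by 2.79 ± 0.14. Phf1, Cbx7, of Polycomb repressive complex 1, and Kdm5b, an H3K4 demethylase, fell at 16 h by 1.10 ± 0.08, 0.95 ± 0.08 and 0.69 ± 0.06. At 72 h Chaf1a, Nsd2 and Hells rose by 3.74, 1.77 and 2.56, and Hdac9, Kdm5b and Kat6b fell by 2.48, 0.66 and 0.55.

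FP set directly against IL-2 called no member at 1.5 h (0% of all genes; 2 members had an unadjusted edgeR p under 0.05, and DESeq2 called 0) and none at 4 h (0%; 0 members at an unadjusted p under 0.05, and 0 by DESeq2). Of all genes tested, 954 of 16643 at 1.5 h and 469 of 17636 at 4 h had such an unadjusted p. At 16 h it called 14 members higher and 9 lower (31.9% of all genes), and at 72 h 12 higher and 7 lower (31%). These comparisons share the FP libraries with those against PBS. Uhrf1 was 3.02 ± 0.13 higher on the log2 scale after FP than after IL-2 at 16 h and 4.24 ± 0.21 higher at 72 h, and Dnmt1 1.34 ± 0.08 and 1.68 ± 0.13. Members called at 16 h only against IL-2 were Tet3, Ep300, Hdac3, Hdac7 and Cbx3. The calls of Tet3, Ep300 and Hdac7, at -0.34, -0.30 and -0.34, were lost with 7, 5 and 5 of the 8 libraries left out singly (adjusted p up to 0.026).

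Whether the FP effect itself changed with time was tested as the difference of log2 changes between tables. A rise of an effect can thus be the loss of an earlier fall. That was so for Kdm5a, Kmt2c and Chd4 after FP, and for Chd4, Dnmt3a and Ezh1 after IL-2. From 1.5 h to 16 h the FP effect rose for 7 members (5% of all genes were called), 5 of them replication-linked: Uhrf1 by 3.78 ± 0.18, Cbx5 by 1.48 ± 0.14, Dnmt1 by 1.43 ± 0.11, Hmgb2 by 1.37 ± 0.27 and Suv39h1 by 0.84 ± 0.13. For Ezh2 the difference was 0.46 ± 0.18 (adjusted p = 0.12), not called. From 16 h to 72 h (15.4% of all genes called) the differences were 2.35 ± 0.23 for Hmgb2 (adjusted p = 4.9e-07), 0.58 for Cbx3, 0.48 for Ep300, 0.35 for Kdm5a and -0.48 for Kdm6b. Those of Cbx3, Kdm5a and Kdm6b were lost in 9, 11 and 8 of 15 fits without 1 library. From 72 h to 168 h (8.79% called) the effect fell for 9 members, among them Uhrf1 (difference -3.32 ± 0.38), Hmgb2 by 2.40 ± 0.32, Ezh2 by 1.65 ± 0.14, Cbx5 by 1.45 ± 0.14 and Dnmt1 by 1.44 ± 0.15, and rose for Kmt2c by 0.55 ± 0.11. Among the 9, the call of Hmga1 was lost in 8 of 14 fits without 1 library (adjusted p up to 0.022), that of Cbx3 without PBS 2 or PBS 3 of 72 h (0.011 each) and that of Suv39h1 without PBS 2 of 72 h (0.012). The IL-2 effect changed from 1.5 h to 16 h for 5 members (12.9% called): it fell for Ezh2 by 1.02 ± 0.18 (adjusted p = 0.00014) and rose for Chd4 by 0.68 ± 0.11, Uhrf1 by 0.72 ± 0.18, Dnmt3a by 0.46 ± 0.11 and Ezh1 by 0.37 ± 0.10. Those of Uhrf1 and Ezh1 were lost in 9 and 11 of 16 fits without 1 library.

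In vitro, where cells met IL-2 for 1.5 h, 5 members rose and 5 fell (14.7% of all genes called, 7.81% higher and 6.87% lower). Ezh2 went from 41.8, 40.4 and 39.9 to 281, 295 and 294 CPM, a change of 2.83 ± 0.04 (adjusted p = 7.6e-42), and the effect in vivo at 1.5 h was smaller, with a difference of -1.52 ± 0.19 (adjusted p = 2.8e-05; 5.12% of all genes called for that difference). Suz12 rose by 0.42 ± 0.04, Setdb1 by 0.41 ± 0.05 and Tet2 by 0.37, and Kdm6b, Hdac7 and Chd4 fell by 0.23, 0.29 and 0.20. Hdac1 at 0.17 and Hmgb2 and Satb1 at -0.18 and -0.13 also passed, but were lost in 4, 5 and 5 of 6 fits without 1 library (adjusted p up to 0.052, 0.1 and 0.094). Dnmt1 and Uhrf1 were not called in vitro, at -0.06 and 0.28. The common biological variation was 4.48% in vitro against 16.3% in the 1.5 h table, so smaller changes could be called in vitro.

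No member was called by edgeR in the remaining comparisons. At 168 h of FP (1.18% of all genes called, 0.172% higher and 1.01% lower) 8 members had an unadjusted edgeR p under 0.05, as had 2580 of all 17411 genes tested, and DESeq2 called 0 members. Hmgb2, at 117, 80.4, 59.4 and 76.3 CPM after FP, was still above PBS at 58.7, 49.8 and 42.3, with a change of 0.73 ± 0.20 (adjusted p = 0.11). Myeloid markers summed there to 28 to 44.4 CPM in FP and 282 to 407 in PBS libraries. At high dose 0% of genes were called, and 6 members had an unadjusted edgeR p under 0.05, as had 2701 of all 16668 genes tested. Hmgb2 was there at 54.5, 43.5 and 50 CPM after PBS and 254, 222 and 209 after IL-2, and Uhrf1 at 14.2, 6.4 and 16.1 against 78.7, 86 and 60.2, without overlap. Their changes were 2.21 ± 0.17 (adjusted p = 0.011) and 2.61 ± 0.37 (adjusted p = 0.025), and DESeq2 called both, its total of 2. Without high-dose PBS 3 and IL-2 2, Hmgb2 passed (adjusted p = 0.0069, change 2.27). In restimulation, single FP (0.0111% called), repeated FP (0.629%) and repeated against single FP (0.563%) called 0 members each, with 2, 3 and 8 at an unadjusted edgeR p under 0.05 and 0 by DESeq2. Of all 17953 genes tested, 1593, 3882 and 3522 had such an unadjusted p. Without FP-FP 2 and 4 the counts were also 0. Ezh2 there was at 51.2, 54.3 and 42.8 CPM after PBS, 41.4, 66.5 and 63.6 after single and 48.3, 33.1, 59.8 and 39.4 after repeated FP, all overlapping. Its called rise of 0.93 at 1.5 h of FP in the 1.5 h table was thus not seen again after single FP, where the change was 0.21. The reason was not tested. Uhrf1, at 25.7, 19 and 37.5 CPM after PBS, was lower without overlap after single FP (18.9, 14.7 and 13.1; change -0.81, adjusted p = 0.34) and after repeated FP (18.7, 17.3, 10.8 and 18.1; -0.76, adjusted p = 0.13), and was not called. In data simulated for the repeated-FP comparison this test recovered 19.4% of genes changed 2-fold and 63.6% of those changed 4-fold. These genes too were drawn at random from all genes tested.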

How the data were processed

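The authors deposited counts, raw reads per gene in 8 tables. Per the submitters' processing notes they aligned reads to GRCm38 with STAR 2.5.0 and counted genes with featureCounts 1.5.0; the series' design text names GENCODE M13. Strandedness is not given in the sources used here, so values of the 16 members that overlap a gene on the opposite strand are uncertain. The 91 samples held 75 libraries. Runs of 1 library, at 72 h and in vitro, were summed. The 2 libraries at 4 h with contradicting labels went into no comparison of the main fits. The treatment text names 1.5 h and 20 µg for all samples, so times came from the treatment label.

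Each table was fitted with edgeR 4.0.16 (limma 3.58.1, R 4.3.3; TMM, filterByExpr, 1 mean per group, robust quasi-likelihood F test, 2-sided), with adjusted p-values over all genes tested and 0.01, the authors' threshold, for calls. Levels are CPM over the TMM-scaled total, ± is the SE of a log2 change or, where named, the SD, and 95% intervals use the t distribution. DESeq2 1.42.0 and other settings were alternatives. The fit was tested on simulated data.

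Members, the lists of S-phase genes, other chromatin genes and cell type markers, and the split by replication were chosen with earlier results of these data known. Library values are given, per role, for the 2 members with the smallest p among those called after FP at 16 h or 72 h and for the 1 with the smallest p called at 1.5 h; other library values were added after seeing the data. Same-numbered libraries deviated together (every correlation over 0.1) for PBS with IL-2 (0.375 to 0.798) and PBS with FP (0.18 to 0.821) at 4 h, and for PBS with IL-2 (0.291 to 0.423) at 72 h. For PBS with FP at 4 h only 1 of 3 PBS libraries correlated best with its own number, and other numbers reached 0.614. For PBS with FP at 168 h 3 of 3 did, at 0.0391 to 0.168, with other numbers up to 0.0686. The labels state no pairing, and whether numbers mark pairs was not settled. Depth was 12212262 to 46108114 reads per library.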

Additional observations from a re-analysis of the deposited data

Results flagged for a closer look

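Of 105 groups of 4 libraries tested for members called in the same table, 5 held a library far from the others, where chance flags about 1 in 20 (5.25 groups). Chd4 in FP library 4 at 1.5 h was at 575 CPM, against 487 to 501 in the other 3. Dnmt1 in FP library 4 at 16 h was at 471 CPM, against 493 to 496. Ezh2 in PBS library 1 at 16 h was at 45.7 CPM, against 54.8 to 55.3. Hmga1 in IL-2 library 2 at 16 h was at 27.9 CPM, against 25.5 to 25.9, and Tet1 in the same library at 28.6 CPM, against 31.1 to 31.3.

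The FP effect differed between times by a test of the difference of log2 changes (edgeR). From 1.5 h to 16 h the differences were 3.78 for Uhrf1, 1.48 for Cbx5, 1.43 for Dnmt1, 1.37 for Hmgb2, 0.841 for Suv39h1, 0.503 for Chd4 and 0.432 for Hdac1; with only the groups compared in the fit, those of Chd4 and Hdac1 had adjusted p = 0.013. From 16 h to 72 h they were 2.35 for Hmgb2, 0.576 for Cbx3, 0.485 for Ep300, 0.353 for Kdm5a and -0.48 for Kdm6b. From 72 h to 168 h they were -3.32 for Uhrf1, -2.4 for Hmgb2, -1.65 for Ezh2, -1.45 for Cbx5, -1.44 for Dnmt1, -1.1 for Suv39h1, -0.893 for Suz12, -0.881 for Hmga1, -0.787 for Cbx3 and 0.548 for Kmt2c; leaving out 1 library lost those of Hmga1, Cbx3 and Suv39h1 in 8, 2 and 1 of 14 fits.

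The IL-2 effect from 1.5 h to 16 h differed by 0.721 for Uhrf1, 0.68 for Chd4, 0.462 for Dnmt3a, 0.374 for Ezh1 and -1.02 for Ezh2. From the in vitro to the in vivo table it differed by -1.52 for Ezh2.

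Of the 2 libraries at 4 h with contradicting labels, 1 held Ezh2 at 132 CPM and the other at 51.5 CPM, where the assigned PBS libraries held 37.2 to 52.3 CPM. The title of the first names FP and its injected molecule PBS, and those of the second are the reverse. The column name of each library holds the same treatment as its title. With both used by title, no count of members called at 4 h moved.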

How the results depend on the processing

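No called change of a member changed direction under any alternative run. The median change of the replication-linked members in vitro, 0.0356, changed sign with the first run only (-0.0512) and without PBS 1 (-0.000303). Of 126 calls of a member in a comparison, 98 stayed past the threshold in every alternative run and 28 did not in at least 1.

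At an adjusted p below 0.05 the members called numbered 16 at 1.5 h of IL-2, 7 at 1.5 h of FP and 2 at high dose, and for changes of effect 16 (FP, 72 h to 168 h), 14 (IL-2, 1.5 h to 16 h) and 4 (in vitro to 1.5 h). DESeq2 called 10 at 1.5 h of IL-2, 2 and 3 at 4 h of IL-2 and FP, 2 at high dose, and 16 and 3 for the FP change from 72 h to 168 h and the in vitro change. Fitting only the groups compared left 0 members at 4 h for both treatments and 0 at 16 h of IL-2, and 2 each for the FP change from 16 h to 72 h and the IL-2 change. RLE scaling left 3 for the FP change from 16 h to 72 h. With the replicate block 2 were called at 4 h of FP and 1 at 168 h (Hmgb2), and it moved no other count by over 1.5 times. Same-numbered correlations at 168 h, 0.0391 to 0.168, were weak and not all over 0.1, though 3 of 3 PBS libraries correlated best with their own number. Lane as a covariate left 0 at 4 h of IL-2, where all libraries compared shared a lane. Of the FP libraries at 4 h only FP 1 lay in that lane, so the FP fit with lane rests on it. The tag in the column names as a factor, chosen after seeing the data, gave 5 (IL-2) and 9 (FP) at 4 h. Tags recur across the groups, as in PBS 4, IL-2 4 and FP 4, and what they mark was not settled. For IL-2 the tag fit called Uhrf1 higher (0.991, edgeR adjusted p = 0.00017) and Hmgb2, Tet1 and Hdac7 lower. For FP it called, among others, Kmt2a (-0.821, adjusted p = 0.00014), Ezh1 (-0.625, adjusted p = 0.0032), Arid1a, Chd3, Ep300 and Hdac7 lower. Without the libraries that stood apart, also chosen after seeing the data, 1 was called at high dose. The causes were not tested.

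Leaving out 1 library at a time gave 3 to 8 members called at 1.5 h of IL-2 (8 without PBS 4, 3 without PBS 1, PBS 3, IL-2 1, IL-2 3 or IL-2 4), 0 at 4 h of IL-2 without any of its libraries, 0 to 1 at 4 h of FP (0 without PBS 1, PBS 2 or FP 2), 2 to 5, 7 to 15 and 7 to 8 for the FP changes from 16 h to 72 h, 72 h to 168 h and 1.5 h to 16 h, 3 to 7 for the IL-2 change and 1 to 2 for the in vitro change (2 without PBS 4 or IL-2 2 of 1.5 h). For the FP change from 16 h to 72 h the count was 2 without PBS 4 or FP 4 of 16 h or PBS 2 of 72 h, and 3 without PBS 3, FP 1, FP 2 or FP 3 of 16 h or PBS 3, FP 1 or FP 2 of 72 h. For the IL-2 change it was 3 without PBS 1 or IL-2 1 of 1.5 h or PBS 4 or IL-2 3 of 16 h. At 16 h and 72 h of FP the counts against PBS were 18 to 24 and 16 to 22. The common biological variation was 38.4% at 4 h and 40.7% at high dose, against 11.2% at 16 h, which limits what those tables can show.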
